A study of Mus musculus with 4 samples.

Results

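Mouse embryonic stem cells that carried a transcript of T, Eomes or Mixl1 were picked out of a droplet single-cell RNA-seq series and described gene by gene. A kept cell was a member when it held at least 1 unique molecular identifier (UMI, a tag that marks 1 captured transcript) summed over these 3 genes, and 1674 of 31989 kept cells did. They are called marker cells here, and they were chosen by the measured UMIs of these 3 genes alone. The series compared the male E14tg2a.4 line, WT, with an Srrm2 heterozygous knockout (Srrm2 hKO), CG0630, a single gene-trap line made from E14tg2a.4 in which 1 Srrm2 allele is truncated and 1 is intact. Both lines were kept with LIF, the cytokine that holds embryonic stem cells in self-renewal, and spent 24 h or 72 h before collection in ESGRO, a medium free of serum, and the labels do not tie a length to a sample. The study's methods give a different length of culture for the single-cell samples. The labels list 2 WT and 2 Srrm2 hKO replicates, and the count matrix holds 4 libraries numbered 1 to 4 that no file used here ties to a genotype. WT and Srrm2 hKO were therefore not compared, the libraries were not treated as replicates, and values are given library by library, with sums over libraries named as such. Intervals, where printed, are exact 95% intervals that cover counting error only.

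T (Brachyury) and Eomes are T-box transcription factors, and Mixl1 is a homeobox transcription factor. In the embryo they mark the primitive streak, the region of the epiblast where Nodal, Wnt and FGF signals bring cells to mesoderm and endoderm, and cultured embryonic stem cells that leave the naive state can switch them on. Because their UMIs chose the cells, the levels of these 3 genes are a description and support nothing else. No cell type known to lack these genes was set apart among the kept cells, so no background share from such a type is given.

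Kept cells per library numbered 8118, 8514, 7893 and 7464, with medians of 18378 to 21898 UMIs. Marker cells numbered 221, 508, 382 and 563 in libraries 1 to 4. Their median UMI counts were 19903, 22517, 24358 and 23436, against 18330, 21852, 19265 and 21275 in kept cells without a marker UMI. Marker cells were thus the deeper class in each library, by the widest margin in library 3, and fold changes of other genes below are against cells matched on UMI count. Shares and levels by number of UMIs, and shares against all cells without a marker UMI, are not matched. Mitochondrial shares were 5.09%, 4.03%, 4.03% and 3.30% in marker cells, against 5.41%, 4.10%, 4.54% and 3.54% in the cells without. Among the kept cells 105 barcode sequences occurred in more than 1 library, and none of those was shared between 2 marker cells, although 12 marker cells had a barcode that also occurs in another library. Doublets were not called, and results without cells of over 2 times their library's median UMI count are given where they differ.

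Marker cells made up 2.72% (2.38 to 3.10), 5.97% (5.47 to 6.49), 4.84% (4.38 to 5.34) and 7.54% (6.95 to 8.17) of the kept cells of libraries 1 to 4. After every cell was thinned to 5000 UMIs the shares were 0.616% (0.457 to 0.811), 1.41% (1.17 to 1.68), 1.41% (1.16 to 1.69) and 2.06% (1.75 to 2.41). Library 1 was lowest and library 4 highest on both scales, and libraries 2 and 3 could not be told apart once thinned. No kept cell was too shallow for the thinning, since the fewest UMIs in a kept cell were 5680.

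Eomes (GRCm38 chr9:118478212-118486132, plus strand) was found in the most cells. Its UMIs lay in 168, 410, 223 and 439 cells, at levels of 1.08, 2.29, 1.51 and 2.76 CPM (UMIs per 1000000 UMIs of the cells named). T (chr17:8434423-8442496, plus strand) lay in 43, 84, 141 and 93 cells at 0.336, 0.939, 1.69 and 1.10 CPM. The order of the libraries therefore differed between them: library 4 was highest for Eomes, and library 3, with an interval of 1.51 to 1.90, was highest for T. By share of kept cells with a T UMI, library 3 at 1.79% (1.51 to 2.10) and library 4 at 1.25% (1.01 to 1.52) had intervals that overlap. Mixl1 (chr1:180693043-180697034, minus strand) lay in 13, 44, 41 and 60 cells at 0.0779, 0.240, 0.244 and 0.350 CPM. Its intervals overlap among libraries 2, 3 and 4. An antisense gene, Gm33460, overlaps Eomes and is counted as its own gene, with 12 to 29 UMIs per library and at most 3 cells per library that held both.

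Single UMIs made up most of the class. Of the 1674 marker cells 1431 held exactly 1 marker UMI, 243 held at least 2 (19, 77, 73 and 74 by library) and 39 held at least 5 (2, 9, 17 and 11). The class of at least 5 was set after the values were seen. In cells with exactly 1 marker UMI, 1074 of 1431 UMIs were Eomes and 231 were T. In cells with at least 5, the balance was the other way round, with 327 of 375 UMIs from T and 40 from Eomes. No cell held more than 6 Eomes UMIs or 4 Mixl1 UMIs, whereas single cells held up to 5, 17, 18 and 15 T UMIs. The Fano factor (variance over mean of the thinned counts, about 1 for random single transcripts) was 1.25, 1.75, 1.73 and 1.44 for T, 0.986 to 1.09 for Eomes and 0.998 to 1.00 for Mixl1. T transcripts were concentrated in few cells. The thinned counts of Eomes and Mixl1 were too sparse for a factor near 1 to show that their transcripts lay 1 by 1. Without thinning, single cells held up to 6 Eomes UMIs or 4 Mixl1 UMIs, and clustering of these 2 genes was not tested further.

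**Figure D1:**
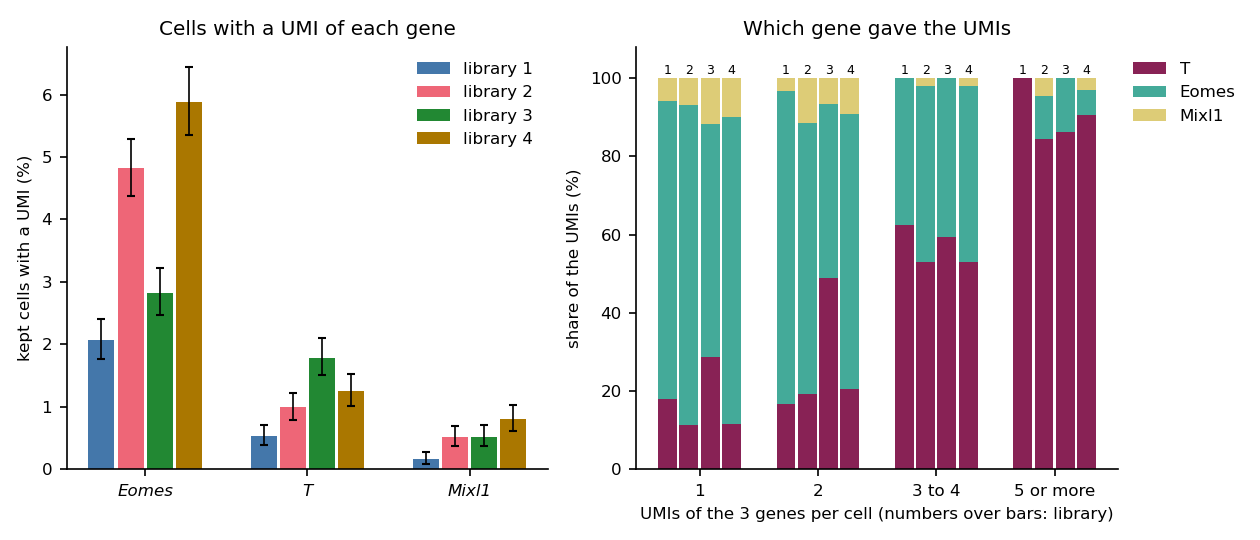
Left, share of kept cells with at least 1 UMI of Eomes, T or Mixl1 (percent) in libraries 1 to 4, raw counts, with exact 95% intervals as lines. Right, share of the UMIs (percent) that came from T, Eomes or Mixl1 in cells with 1, 2, 3 to 4, and 5 or more UMIs of the 3 genes, with the library number over each bar. Eomes leads among single UMIs and T, with 84.4% to 100% of the UMIs, in cells with 5 or more.

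Most marker cells held a single one of the 3 genes. T without the other 2 was seen in 298 cells, Eomes alone in 1166, Mixl1 alone in 129, T with Eomes in 52, T with Mixl1 in 7, Eomes with Mixl1 in 18 and all 3 in 4. Eomes was found in 4.65%, 20.2%, 13.5% and 19.4% of cells with a T UMI and in 2.06%, 4.66%, 2.63% and 5.71% of cells without one. In library 1 the first share rests on 2 of 43 cells, with an interval of 0.568% to 15.8% that takes in the second. Thinned to 5000 UMIs, Eomes was found in 0 of 7, 1 of 23, 2 of 45 and 3 of 34 T cells, against 0.505%, 1.04%, 0.701% and 1.41% of the rest, and the interval of the first share took in the second in libraries 1 to 3. Summed over libraries, which differ in both genes, these were 6 of 109 cells, 5.50% (2.05 to 11.6), against 0.907%. Mixl1 was found in 5 of 84 T cells in library 2 and 5 of 93 in library 4, but in 1 of 141 in library 3 and 0 of 43 in library 1.

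Fgf8 (chr19:45736798-45742915, minus strand), the FGF ligand of the streak, was not used to choose the cells, and it was found more often in cells with more T UMIs in libraries 2 to 4. In library 2 an Fgf8 UMI was found in 1.81% of cells with no T UMI, 12.7% of cells with 1, 69.2% of cells with 2 to 4 and 75.0% of cells with 5 or more. In library 4 the shares were 2.82%, 14.1%, 66.7%, and 9 of 10 cells. In library 3 they were 1.12% and 5.88%, then 3 of 25 cells, and then 78.6%, so that the step came at a higher T count. Library 1 had no Fgf8 UMI in its 5 cells with at least 2 T UMIs, which allows a share of cells with a UMI of up to 52.2% by the exact interval. Over all libraries 26 of 34 cells with 5 or more T UMIs held Fgf8. Those 34 cells carried 177 Fgf8 UMIs, 16.9% of all in kept cells, and the 53 cells with 2 to 4 T UMIs carried 152, or 14.5%. In library 3, 1 cell with 4 T UMIs held 43 of the 152. Most Fgf8 UMIs, 647 or 61.8%, lay in cells with no T UMI, of which 483 held Fgf8. By Eomes the spread of shares was narrower, as Fgf8 was found in 1.58% of cells with no Eomes UMI, 4.59% with 1 and 14.8% with at least 2.

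**Figure D2:**
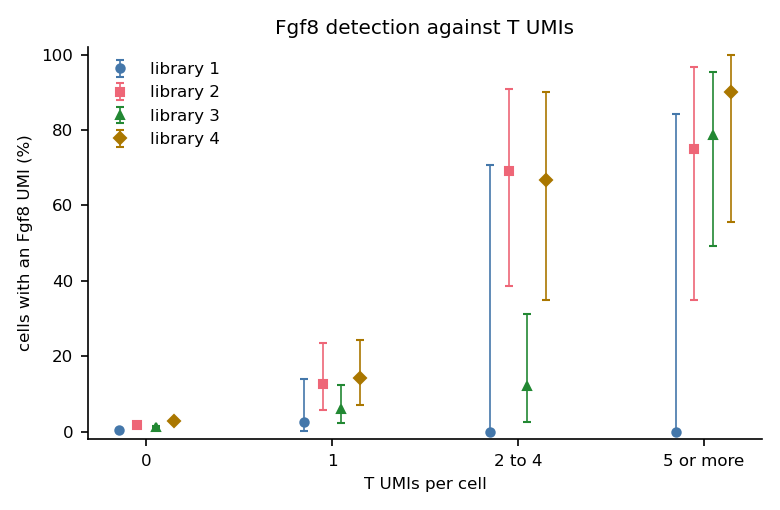
Share of kept cells with at least 1 Fgf8 UMI (percent) against the number of T UMIs in the cell, for libraries 1 to 4, with exact 95% intervals. Libraries 2 and 4 reach 69.2% and 66.7% at 2 to 4 T UMIs, library 3 reaches 78.6% only at 5 or more, and library 1 has too few such cells, 3 and 2, to place.

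Cells with at least 2 T UMIs (5, 21, 39 and 22) were set beside 10 times as many cells matched on UMI count and free of marker UMIs. Wnt3, the ligand that starts the streak, was found in 57.1%, 30.8% and 54.5% of them in libraries 2 to 4, against 0.952%, 5.64% and 6.36% of matched cells. Fst, the secreted activin antagonist follistatin, was found in 71.4%, 48.7% and 54.5%, against 6.19%, 13.8% and 12.7%. Evx1, a homeobox gene of the posterior streak, was found in 4 of 21, 1 of 39 and 4 of 22 cells, and in 1 of 210, 0 of 390 and 0 of 220 matched cells. Mesp1 was found in 3 of 21, 0 of 39 and 2 of 22 cells, against 2 of 210, 3 of 390 and 4 of 220. Cdx2 was found in 5 of 21, 0 of 39 and 3 of 22, against 0 of 210, 3 of 390 and 0 of 220. In library 1, 0 of 5 cells held Fst, Evx1 or Cdx2 and 1 of 5 held Wnt3, as 1 of 5 did Mesp1. The keratin gene Krt8 was found in 100%, 57.1%, 92.3% and 77.3% of these cells in libraries 1 to 4. In matched cells its shares were 16.0%, 14.3%, 30.8% and 35.5%. Pou5f1, the core pluripotency factor Oct4, was found in every cell with at least 2 T UMIs in the 4 libraries, and in 100%, 99.5%, 98.7% and 100% of matched cells. Its level was 401, 853, 450 and 714 CPM against 731, 789, 640 and 771. Nanog was found in 2 of 5, 15 of 21, 17 of 39 and 17 of 22, against 94.0%, 80.5%, 80.3% and 55.9% of matched cells. The intervals of the 2 shares were separate in library 3, at 27.8% to 60.4% against 76.0% to 84.1%, and overlapped in libraries 1, 2 and 4. The Nanog level in library 4 was 61.8 against 62.2 CPM.

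Among the 39 cells with at least 5 marker UMIs, 38 held T, 15 Eomes, 5 Mixl1, 28 Fgf8, 21 Wnt3 and 39 Pou5f1. Sox17 and Gata6, transcription factors of endoderm, were found in 0 of them, which allows a share of cells with a UMI of up to 9.03% by the exact interval and does not limit the share that expresses them. Foxa2, a transcription factor of endoderm and node, was found in 4, of which 1 cell of library 3 held 14 Foxa2 UMIs beside 43 Fgf8, 6 Eomes and 4 T UMIs. Mesp1, which marks nascent mesoderm, was found in 5, and 2 cells of library 2 held 12 and 9 of its UMIs beside 17 and 15 of T. Cdx2 was found in 6 cells, with 10 and 11 UMIs in 2 cells of library 4. Of these cells 9 had over 2 times their library's median UMI count, and 6 of those were in library 3. These cells differ among themselves in what else they express, and no cell type name was given to them.

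The streak and nascent mesoderm list (14 genes, among them Fgf8, Wnt3, Evx1, Mesp1, Tbx6 and Lhx1) was summed in all marker cells and in 3 matched cells for each. Its level was 4.65, 24.4, 22.6 and 24.9 CPM in marker cells and 4.53, 5.46, 9.42 and 7.16 in matched cells. Libraries 2 to 4 were therefore 4.46-fold (3.75 to 5.32), 2.40-fold (2.02 to 2.85) and 3.47-fold (2.98 to 4.05) higher, and in library 1, at 1.03-fold (0.624 to 1.63), no difference was detectable. None of its 14 members reached the minimum of 50 counts in each library. The folds were larger in the cells with more UMIs: in cells with exactly 1 marker UMI the folds were 0.759, 1.56, 1.14 and 1.64, and in cells with at least 2 they were 3.89, 18.4, 6.45 and 14.0. The 3.89 of library 1 rests on 7 UMIs, with an interval of 1.37 to 9.76. Fgf8 alone gave 173 of 325, 105 of 247 and 196 of 372 UMIs of the list in marker cells of libraries 2 to 4. With at least 5 marker UMIs it gave 56 of 104, 88 of 112 and 86 of 130, and 1 cell held 43 of the 88. The definitive endoderm and node list (9 genes) had folds of 0.838, 0.874, 1.37 and 1.18, with levels of 6.75 to 11.3 CPM in marker cells. With at least 2 marker UMIs its folds were 0.238, 0.913, 2.76 (1.97 to 3.81) and 1.39. With at least 5 they were 0, 7.68 (4.61 to 12.7) and 2.67 in libraries 2 to 4. Library 3 held 30 of its UMIs in that class, 14 of them from Foxa2 in 1 cell.

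The naive pluripotency panel was lower in marker cells of each library. Its 10 genes summed to 1463, 1170, 851 and 702 CPM, against 1940, 1608, 1325 and 935 in matched cells, which is 0.754-fold (0.736 to 0.773), 0.727-fold (0.714 to 0.740), 0.642-fold (0.628 to 0.657) and 0.750-fold (0.734 to 0.767). Of the 10 members 9 were lower in all 4 libraries, although none by 1.5-fold in each, and their median log2 ratio was -0.52, beside a median of 0.04 over all 10421 genes tested, of which 15.4% were lower in every library. Zfp42 (Rex1), a marker of naive cells, stood at 365, 374, 216 and 254 CPM against 517, 550, 376 and 361. Klf4, a naive transcription factor, stood at 116, 75.6, 57.5 and 30.8 against 164, 107, 99.8 and 48.1. Tbx3 was the exception, lower in libraries 1 to 3 and 3.61 against 3.43 CPM in library 4. Pou5f1 stayed near its matched level at 803, 797, 583 and 772 against 835, 791, 634 and 771, and Sox2, its partner in the core network, was lower at 341, 332, 193 and 260 against 420, 413, 282 and 294.

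The panel was lower in cells with 1, 2 and 3 to 4 marker UMIs in turn. In library 3 the naive panel stood at 1439 CPM in cells with no marker UMI, 924 with 1, 705 with 2, 482 with 3 to 4 and 342 with 5 or more. In library 2 the levels were 1604, 1253, 890, 412 and 459, and in library 4 they were 953, 732, 559, 389 and 492. The first 2 levels of each are those of the cells just outside and just inside the rule, and from 3 to 4 UMIs to 5 or more the level was lower in library 3 alone. Library 1 went from 1946 to 1503 and 1278, and then to 316 and 825 in classes of 2 cells each. Pou5f1 was level across the classes of libraries 2 and 4, between 777 and 867 and between 687 and 778, and was lower with each step in library 3, from 669 to 363 CPM, and in library 1, from 848 to 393.

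**Figure D3:**
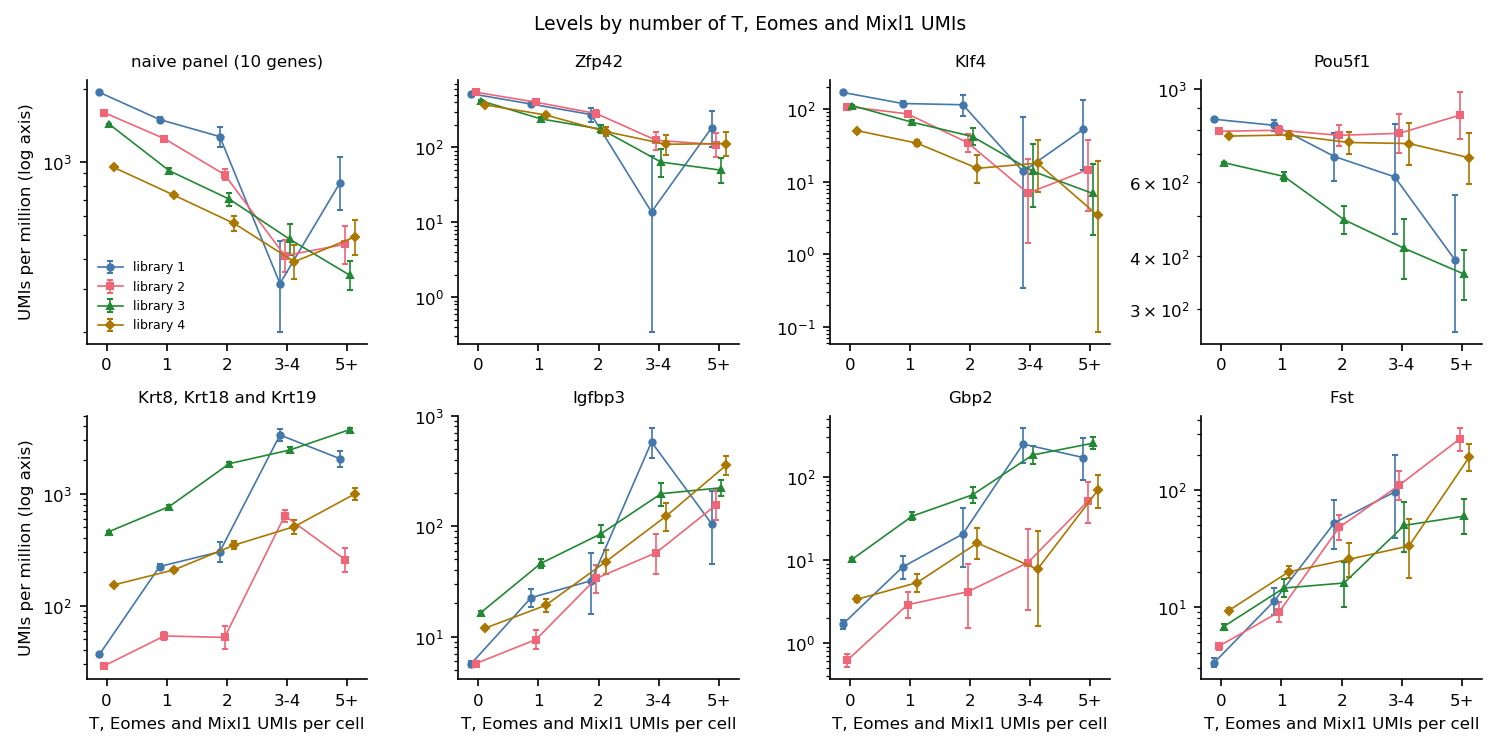
Level in CPM (log axis) against the number of T, Eomes and Mixl1 UMIs in the cell (0, 1, 2, 3 to 4, and 5 or more), for the naive panel, Zfp42, Klf4, Pou5f1, the 3 keratins, Igfbp3, Gbp2 and Fst in libraries 1 to 4, without matching, with exact 95% intervals, and points at 0 left out. The naive panel is lower and Igfbp3 higher at 1 and 2 marker UMIs than at 0 in each library, and the last 2 points of library 1 rest on 2 cells each.

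Ranked the other way, cells were split into quintiles of each library by the share of their UMIs from the naive panel, after thinning to 5000 UMIs for the count of marker cells. In the lowest quintile 0.985%, 3.11%, 3.80% and 2.95% of cells held a marker UMI, and in the highest quintile 0.555%, 0.823%, 0.380% and 1.34%. The intervals of these quintiles were separate in libraries 2 to 4 and overlapped in library 1. Quintiles of the 3 keratins are not given, because the lower ones would split tied cells, since 84.3%, 70.4%, 60.6% and 44.8% of kept cells had no keratin UMI. By the formative panel, which holds Otx2, Fgf5 and Pou3f1, the intervals of the highest and lowest quintiles were separate in library 2, at 2.47% against 0.998%, and overlapped in the others. By total UMIs the thinned share had no steady order in any library.

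Genes across the transcriptome were called when marker cells were at least 1.5-fold higher or lower than matched cells in each of the 4 libraries, with at least 50 counts in each. Of 10421 genes tested, 59 were higher (0.566%) and 3 were lower (0.0288%). The minimum summed marker and matched cells, here and in the comparisons of other classes, so a gene high in marker cells could pass it through them. With the same minimum in the matched cells alone, an alternative added after the data were seen, 9796 genes were tested, 21 were higher and 2 lower, and of the genes named by rank Igfbp3, Fst and Krt19 were among those higher. Values of the others are given as a description. Piezo2, a mechanically gated ion channel, had log2 ratios of 3.39, 2.28, 1.79 and 1.47. Igfbp3, a secreted binding protein of insulin-like growth factors, stood at 31.8, 16.6, 65.3 and 31.2 against 7.51, 5.92, 23.5 and 12.3 CPM. These genes were higher in each library, but most marker cells had no UMI of them, since Piezo2 was found in 9.50%, 9.25%, 22.8% and 15.1% of marker cells and in 0.988%, 1.96%, 5.02% and 5.62% of cells without a marker UMI.

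Others that ranked high were Pkdcc, a secreted kinase, with log2 ratios of 2.38, 2.12, 1.22 and 1.16, Fst with 2.07, 2.14, 1.10 and 1.32, and Ppp4r4, a regulatory subunit of a phosphatase, with 2.41, 2.24, 1.68 and 1.35. Colec12, a scavenger receptor, had log2 ratios of 2.62, 1.65, 1.03 and 1.05. The guanylate-binding proteins Gbp2b and Gbp2, interferon-induced GTPases, had 2.49, 3.54, 1.70 and 1.49, and 2.55, 3.58, 1.76 and 1.12. Psmb8, an immunoproteasome subunit, had 3.20, 1.64, 2.90 and 0.92. Gbp2b and Gbp2 are near copies, as Rtl8a (1.62, 1.00, 1.39 and 1.04) is of other Rtl8 genes, so their counts may be split between paralogs. The genes called lower were Ryr2, a calcium release channel (-0.89, -0.83, -0.77 and -0.82), 2410137M14Rik and Gm13580, each with intervals that reached 0 in at least 1 library. With exactly 1 marker UMI 9 genes were higher, Gbp2b, Igfbp3, Fst and Rtl8a among them, beside 59 of 10421 (0.566%) in all marker cells. Fewer genes could reach the count minimum there, so the 2 counts are not like shares. Piezo2, Ppp4r4, Gbp2 and Psmb8 were lost there to the count minimum, with weakest log2 ratios of 1.01, 1.02, 0.83 and 0.62, and Pkdcc, Colec12 and Krt19 by size, with 0.38, 0.58 and 0.09. Of the genes kept, Gbp2b and Rtl8a were not called in all marker cells with the count minimum in the matched cells alone.

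Cells with at least 2 marker UMIs were compared with 10 matched cells each, at 2-fold in every library and 20 counts. Of 9587 genes tested, 77 were higher (0.803%) and 27 were lower (0.282%). With the minimum in the matched cells alone 9338 were tested, 46 were higher, among the named genes Igfbp3, Krt19 and Colec12, and 27 were lower. The 2 comparisons share cells, and 35 genes were higher in both, 59.3% of the first list and 45.5% of the second. Piezo2 ranked first with log2 ratios of 4.00, 3.97, 2.73 and 2.77, followed by Pkdcc with 4.602, 4.14, 2.61 and 2.96. Igfbp3 stood at 124, 54.0, 137 and 104 CPM against 8.95, 6.29, 25.6 and 13.0. Fgf8 stood at 66.4, 40.1 and 68.0 against 0.694, 0.827 and 1.08 in libraries 2 to 4 and was not tested, because library 1 held 2 of its UMIs in these cells.

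The genes lower in cells with at least 2 marker UMIs were led by Spink1, a protease inhibitor, at 12.2, 14.8, 8.63 and 12.7 CPM against 37.2, 47.7, 36.7 and 36.9. Tcl1, a cofactor of AKT signalling, stood at 28.5, 17.1, 16.0 and 5.63 against 100.9, 45.6, 44.6 and 19.3. Nr0b1 (Dax1), a nuclear receptor of the naive network, had log2 ratios of -1.29, -1.17, -1.97 and -1.93. Of the naive panel 3 of 10 members passed, namely Zfp42 (-1.15, -1.23, -1.52 and -1.18), Esrrb (-1.12, -1.46, -1.86 and -1.65) and Klf2 (-1.09, -1.36, -1.44 and -1.12). Klf4 missed in library 1 alone, with log2 ratios of -0.88, -1.99, -1.73 and -1.74. Nanog stood at 81.3, 88.6, 34.1 and 58.2 CPM against 129, 127, 89.2 and 57.7, so that it was lower in libraries 1 to 3 and level in library 4.

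**Figure D4:**
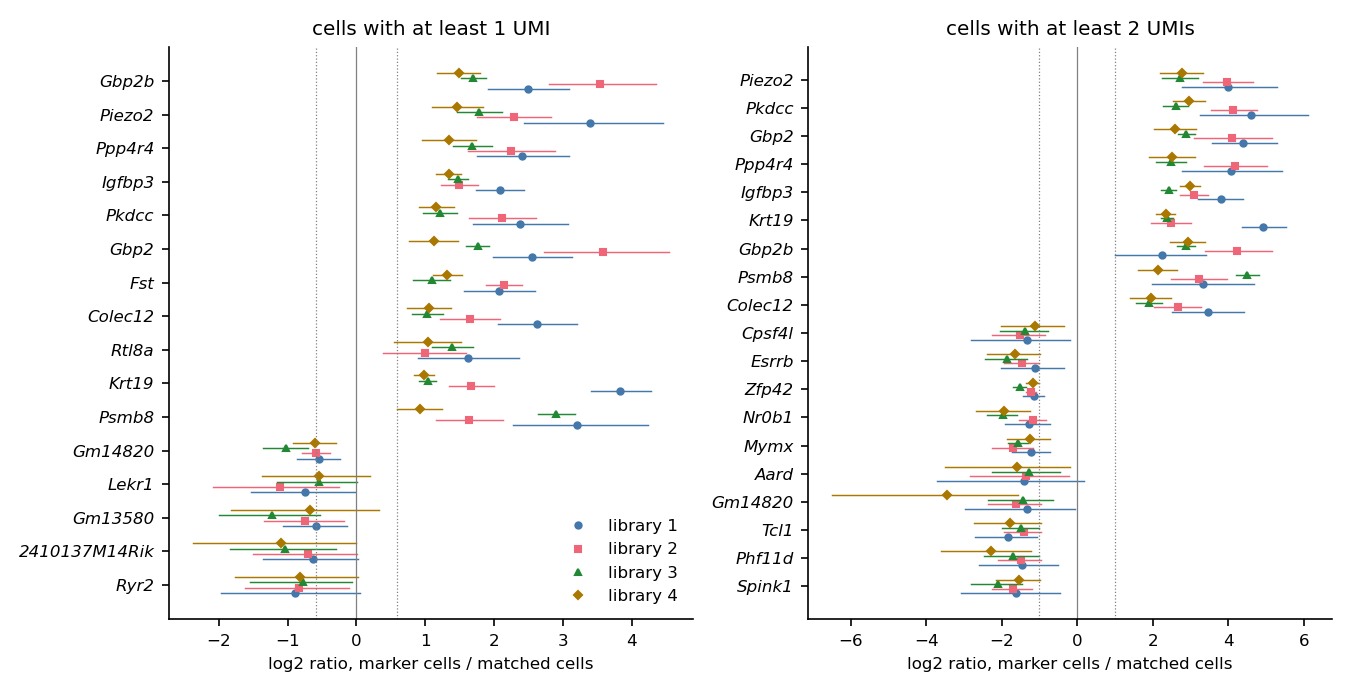
Log2 ratio of CPM in marker cells over matched cells for the genes named by rank, in libraries 1 to 4, for cells with at least 1 (left) and at least 2 (right) marker UMIs, with exact 95% counting intervals as lines and dotted lines at 1.5-fold and 2-fold. Igfbp3 is at 1.34 in its weakest library on the left and at 2.42 on the right, and the lower genes on the right include Zfp42, Esrrb and Nr0b1. Several of the higher genes, Gbp2b and Piezo2 among them, reached the count minimum only with the UMIs of marker cells.

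The simple keratins Krt8, Krt18 and Krt19, intermediate filament proteins of epithelia, were higher in marker cells of each library. Summed, they stood at 297, 76.7, 1122 and 246 CPM against 46.0, 22.4, 787 and 167, which is 6.46-fold (5.92 to 7.06), 3.42-fold (3.13 to 3.75), 1.43-fold (1.40 to 1.46) and 1.47-fold (1.42 to 1.53). Libraries 3 and 4 thus had more keratin outside the marker cells and the smaller folds. All 3 passed 2-fold in cells with at least 2 marker UMIs, beside 0.803% of all genes tested, Krt8 with 494, 103, 1148 and 218 CPM against 32.5, 11.7, 419 and 64.9. In cells with exactly 1 marker UMI of library 3 the direction depended on the matching, with 0.912-fold against matched cells and, unmatched, 770 CPM against 460 in cells with none.

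Cells over 100 keratin CPM, a limit set after the values were seen, made up 13.6%, 12.8%, 41.1% and 37.5% of marker cells, 36.8%, 28.6%, 74.0% and 54.1% of cells with at least 2 marker UMIs, and 2.66%, 5.08%, 14.6% and 21.8% of cells without. Without them 15 genes passed 1.5-fold higher with at least 1 marker UMI, Fst and Colec12 among the named genes, and 4 passed 2-fold with at least 2. With them the counts were 59 of 10421 genes tested (0.566%) and 77 of 9587 (0.803%). Calls were also lost to the count minimum, since Gbp2, Gbp2b, Piezo2, Ppp4r4 and Pkdcc kept weakest log2 ratios of 1.84, 1.31, 0.93, 1.47 and 1.20 there, and with at least 2 marker UMIs Piezo2, Pkdcc, Gbp2, Ppp4r4, Igfbp3, Gbp2b and Psmb8 kept weakest ratios of 1.51 to 2.32. With at least 2, library 1 had 19 cells before its 7 keratin-high ones were left out. Its ratios there can rest on few UMIs or on a class at 0 taken as 3 counts, so they do not show that a fold was kept. Others were lost by size, with weakest ratios of 0.52 for Igfbp3, 0.22 for Rtl8a and 0.10 for Krt19 with at least 1 marker UMI. With at least 2, none of the 10 genes named by rank as lower passed 2-fold any longer: in its weakest library Nr0b1 was at -0.74, Gm14820 at -0.64, Spink1 at -0.57, Aard at -0.55, Esrrb at -0.50, Mymx at -0.47, Zfp42 at -0.33, Tcl1 at -0.12, Phf11d at -0.076 and Cpsf4l at 0.07. The naive panel kept its direction without them, at 0.847, 0.757, 0.777 and 0.838-fold. The streak list stood at 0.4995, 3.91, 1.45 and 4.03-fold without them. Keratin level and naive level moved with the same cells: matched within quintiles of the naive panel share, the keratin folds were 3.32, 1.81, 0.833 and 1.34, and 8 genes passed 1.5-fold higher, Piezo2, Ppp4r4, Igfbp3, Gbp2, Gbp2b and Rtl8a among those named. Of these Igfbp3 alone was also called in all marker cells with the count minimum in the matched cells alone. The others, and Colec12 above, could reach the minimum through the marker cells, so their passing here is a description. The parts of keratin level and naive level in the result were not tested.

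Pathway lists were summed in the same way. Of all genes tested 30.3% were higher in every library and 0.566% passed 1.5-fold higher, the shares to read the counts of members against. Of the 12 Nodal pathway genes 10 were tested and none passed 1.5-fold, with list folds of 1.00, 1.01, 0.993 and 1.02, and the ligand Nodal stood at 34.8, 22.9, 31.3 and 12.1 CPM against 34.7, 21.1, 26.6 and 10.8. Lefty1, the Nodal antagonist, differed in direction between libraries, with 66.7, 52.6, 80.9 and 28.8 against 57.8, 69.9, 54.1 and 28.1. Of 13 Wnt targets and effectors 9 were tested and Sp5, a direct Wnt target, alone passed, at 9.30, 9.90, 22.6 and 8.49 against 5.59, 6.42, 13.6 and 3.61, while Axin2 did not, at 5.02, 8.47, 7.13 and 6.02 against 6.33, 8.45, 6.45 and 5.55. Of 10 BMP pathway genes 8 were tested and none passed, and 4 were higher in every library, among them the BMP target Id1 at 23.1, 98.0, 79.8 and 229 against 17.7, 68.9, 60.4 and 149. The median log2 ratios of the tested members were 0.11 for Nodal, 0.14 for Wnt and 0.24 for BMP, beside 0.04 for all genes. With at least 2 marker UMIs the BMP list had folds of 1.87, 1.37, 1.43 and 1.74, with 4 of 7 tested members higher in every library beside 25.3% of all genes, the Wnt list 1.35, 1.28, 1.20 and 1.05, and the Nodal list 0.906, 1.11, 0.971 and 1.18. The median log2 ratios were then 0.58 for BMP, 0.26 for Wnt and 0.26 for Nodal, beside 0.06 for all genes.

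The formative list had folds of 1.20, 1.25, 1.12 and 1.06. Matched within naive quintiles, its median log2 ratio over libraries was -0.012. Of its 10 genes 8 were tested, and 6 were higher and 1 lower in every library, beside 30.3% and 15.4% of all genes. Of these 1, Sox3, passed, at 6.69, 11.5, 12.6 and 18.1 CPM against 2.48, 6.04, 7.00 and 11.96. Its matched cells held 40 UMIs in library 1, so it passed the count minimum with those of the marker cells. The lower member was Utf1, at 571, 502, 511 and 526 against 582, 507, 541 and 555. With at least 2 marker UMIs 2 of 7 tested were higher and 1 lower in every library, beside 25.3% and 15.5% of all genes, and the list folds of 1.13, 1.42, 0.969 and 0.924 differed in direction. With at least 5 the folds were 1.00, 0.858 and 0.573 in libraries 2 to 4. Otx2, a homeobox factor of the formative state, stood at 31.4, 104, 26.0 and 127 CPM against 25.9, 88.0, 23.5 and 119. Pou3f1 (Oct6), a POU factor of primed cells, stood at 82.0, 134, 150 and 208 against 15.8, 73.8, 78.9 and 172. Fgf5 itself, a ligand that marks the primed epiblast, stood at 6.69, 19.1, 5.76 and 20.5 against 0.683, 7.75, 1.86 and 13.4 and was not tested, with 36 and 11 UMIs in library 1. Nes, the intermediate filament nestin, carried the neuroectoderm list with 50.9, 52.6, 104 and 117 against 9.94, 21.7, 52.2 and 70.3, and was the 1 of 2 tested members of that list to pass. The other, Pax6, a neural transcription factor, was lower in every library, at 12.1, 10.4, 8.60 and 7.42 against 19.6, 13.4, 12.8 and 8.01. Of 16 contractile genes 13 were tested, 12 were higher in every library, beside 30.3% of all genes, and 2 passed, beside 0.566%. The contractile list had folds of 1.41, 1.10, 1.25 and 1.17 in libraries 1 to 4. Tagln (transgelin) was not among the 2 that passed, because it fell short in library 3. It stood at 140, 39.6, 549 and 199 CPM against 16.5, 6.87, 416 and 114, and its ratios in libraries 1 and 2 do not stand for the list.

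Lists of other cell types were also summed. The primitive endoderm list had folds of 1.33 (1.05 to 1.68), 1.56 (1.32 to 1.83), 1.25 (1.14 to 1.38) and 1.11 (0.985 to 1.25), and 2.54, 1.88, 2.03 and 1.07 with at least 2 marker UMIs, with Gata6 at 0, 0, 1.01 and 0.201 CPM in marker cells. Of its 10 members 2 were tested and they went opposite ways, the basement membrane gene Col4a1 higher and Lama1 lower in every library. With at least 2 marker UMIs Lama1 alone was tested, and it was lower in every library, with a median log2 ratio of -0.96, against the summed list. The trophoblast list had folds of 0.944, 0.917, 0.949 and 0.984, and with at least 2 marker UMIs 1.27, 0.794, 1.27 and 1.47. The germ cell list had folds of 0.932, 0.895, 0.772 and 0.747, and 0.616, 0.503, 0.553 and 0.531 with at least 2 marker UMIs. Fibroblast genes summed to 3.35, 6.90, 13.2 and 7.82 CPM in marker cells and to 1.86, 4.91, 12.4 and 8.12 in matched cells, with none at the count minimum. The two-cell-like genes held 0, 3, 38 and 0 UMIs in marker cells, and in library 3 stood at 3.48 CPM against 0.703, which is 4.94-fold (2.87 to 8.69), with 0 UMIs in cells of at least 2 marker UMIs. The G2/M list had folds of 0.921, 0.931, 0.957 and 0.922, the S phase list 1.02, 1.04, 1.01 and 1.02, and the 4 genes Srrm1, Srrm2, Son and Sf3b1 together 0.991, 1.03, 0.973 and 1.03. The FGF and ERK feedback list had folds of 1.12, 1.09, 0.996 and 1.02, the adhesion and mesenchymal transition list 1.11, 1.06, 1.28 and 1.11, and the core list of Pou5f1, Sox2 and Sall4 0.914, 0.956, 0.851 and 0.973.

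**Figure D5:**
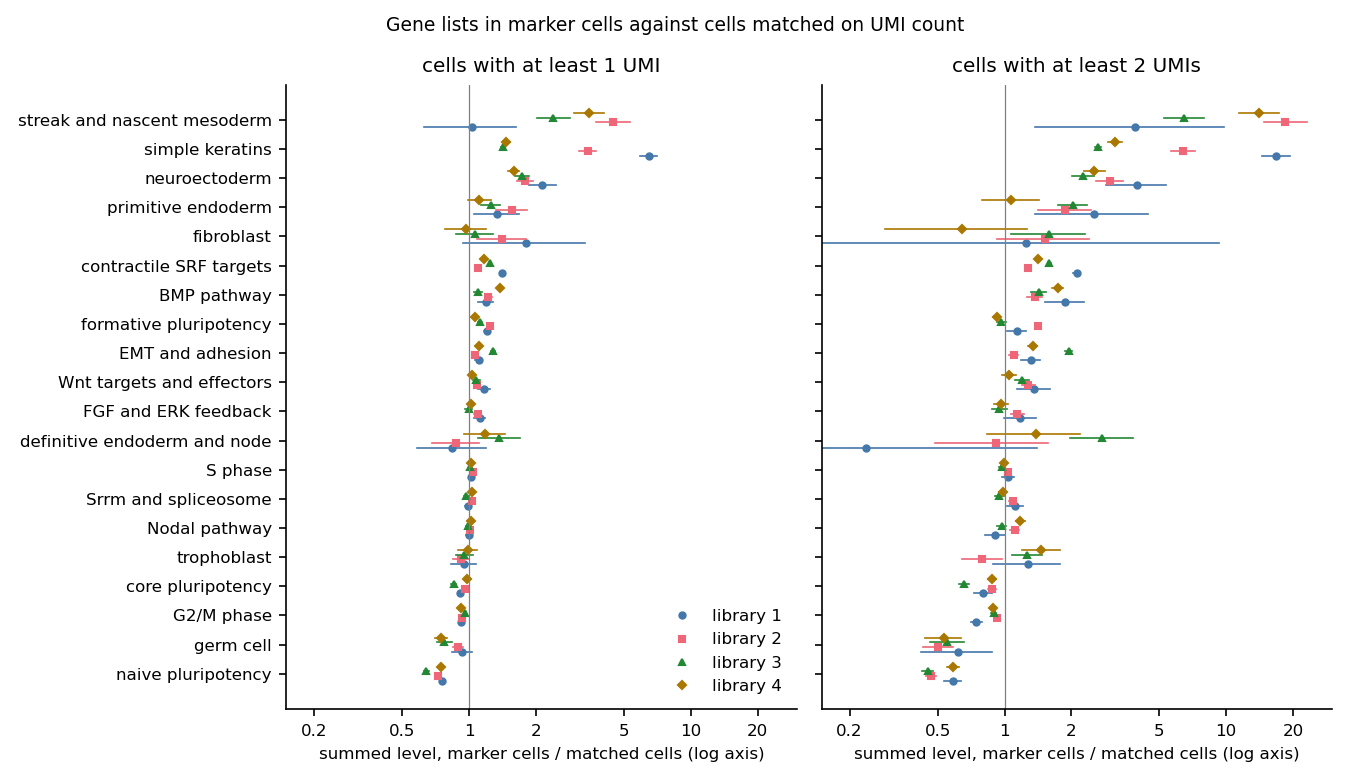
Summed level of 20 gene lists in marker cells over matched cells (fold, log axis) in libraries 1 to 4, with exact 95% counting intervals as lines, for cells with at least 1 (left) and at least 2 (right) marker UMIs. The keratins lie to the right of 1 in every library and the naive panel to the left, at 0.642 to 0.754-fold with at least 1 UMI and 0.449 to 0.587-fold with at least 2.

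Each of the 3 genes was also taken alone. Of 6833 genes tested in cells with a T UMI, 69 were at least 1.5-fold higher (1.01%) and 58 lower (0.849%) in every library. Of 9864 tested in cells with an Eomes UMI, 24 were higher (0.243%) and 0 lower (0%), and of 3351 tested in cells with a Mixl1 UMI, 0 were higher (0%) and 5 lower (0.149%). The classes overlap and differ in size, so these counts are not a test of T against Eomes. With the minimum in the matched cells alone the counts were 30 and 53 for T, 7 and 0 for Eomes, and 0 and 3 for Mixl1. The naive panel was at 0.691, 0.602, 0.550 and 0.678-fold in T cells, 0.767, 0.744, 0.689 and 0.762-fold in Eomes cells and 0.687, 0.523, 0.643 and 0.649-fold in Mixl1 cells. The keratins were at 17.2, 6.96, 2.11 and 2.46-fold in T cells, 3.18, 3.01, 1.20 and 1.34-fold in Eomes cells, and 3.26, 1.72 and 1.59-fold in Mixl1 cells of libraries 2 to 4. The streak list was at 2.00, 17.3, 4.28 and 11.5-fold in T cells, 0.877, 3.97, 2.55 and 2.12-fold in Eomes cells, and 5.85, 0.960 and 4.36-fold in Mixl1 cells of libraries 2 to 4. The 13 Mixl1 cells of library 1 held 0 UMIs of the streak list and 3 of the keratins.

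Cells with at least 5 marker UMIs could be compared in libraries 2 to 4, where there were 9, 17 and 11. Of 8165 genes with 20 counts in each of these libraries, 114 were at least 2-fold higher (1.4%) and 130 lower (1.59%). With the minimum in the matched cells alone 7849 were tested, 78 were higher and 130 lower. Fgf8, Igfbp3, Fst and Dsp are not among those 78, since the matched cells of library 2 held 1, 12, 15 and 15 of their UMIs, and their values are given as a description. Fgf8 held 56, 88 and 86 UMIs against 1, 11 and 3 and stood at 204, 151 and 294 CPM against 0.364, 1.88 and 1.02 in matched cells. In library 3, 1 cell held 43 of the 88. Igfbp3 stood at 157, 222 and 355 against 4.37, 20.6 and 11.6, Fst at 273, 59.9 and 191 against 5.46, 12.7 and 9.22, and Dsp, the junction protein desmoplakin, at 61.9, 71.9 and 92.3 against 5.46, 15.8 and 6.49. The lower genes were led by Klf4 at 14.6, 6.85 and 3.42 against 110, 88.4 and 41.0 and by Tcl1 at 7.29, 3.42 and 3.42 against 43.3, 50.5 and 19.1. Library 3 differed from the other 2 in several of these cells' genes: its keratins stood at 3748 CPM against 946 in matched cells, which is 3.96-fold, while libraries 2 and 4 had 259 against 20.4 and 994 against 68.3, or 12.7 and 14.6-fold, and Nanog was at 18.8 against 82.6 in matched cells, while libraries 2 and 4 had 91.1 against 120 and 85.4 against 58.1. The keratin levels rest on few cells. In library 4, 1 cell with 60487 UMIs in total, over 2 times the library's median, held 109 of the 143 Krt8 UMIs. In library 2, 2 cells held 19 and 18 of 41, and in library 3 the most in 1 cell was 331 of 1042. Vim (vimentin) was at 1540 and 536 against 287 and 71.4 in libraries 3 and 4, and at 146 against 139 in library 2.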

How the data were processed

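The authors aligned the 4 libraries (10x 3′ v3) to mm10 with Cell Ranger 6.1.2 (version per the submitters' processing notes) and joined them with its aggregation step at default settings, which evens mean read depth between libraries. The deposited values are raw UMI counts per gene and barcode (32285 genes, 41142 barcodes). The library number ends each barcode, and neither labels nor files link it to a sample.

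The study's stated filter was applied per library (UMIs and detected genes each at least the mean minus 1 SD, mitochondrial share at most 10%). Levels are CPM (UMIs per 1000000) with exact Poisson intervals, shares have Clopper-Pearson intervals, and ratios have conditional binomial intervals, all at 95%. Matched cells were the nearest unused cells by UMI count in the same library, 3 per marker cell, or 10 for cells with at least 2 UMIs. The level that a count of 0 allows was taken as 3 counts, which is 0.0150 to 0.0180 CPM of a library. Cells are not replicates, so no p-value was computed. Comparing genes by UMI counts is not biased by transcript length, as each transcript is tagged at 1 end. Named genes were the top 12 by the weakest library among those called (top 5 by that rank in a direction with fewer than 5), the top 10 in each direction for cells with at least 2 or at least 5 UMIs, and members that carry a list, except where a gene is not reported here. The members, 21 lists (196 genes), limits and tests were chosen with earlier results of these data known. Positions are from GENCODE vM21 (GRCm38, the mm10 build). Python 3.11.15, numpy 2.4.6, pandas 2.3.3, scipy 1.17.1 and matplotlib 3.10.9 were used. Gene calls and ratio intervals were tested on simulated Poisson counts. Those counts hold no spread between cells, so the test does not cover genes whose UMIs lie in few cells. The matching was checked on the real cells, for median UMI count and for no cell used again. Alternatives were the matching, scaling, count minimum, fold, cell filter, high-UMI cells, shared barcodes, single genes and leaving out each library.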

Additional observations from a re-analysis of the deposited data

Results flagged for a closer look

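Barcodes outside the cell filter, which no comparison used, also held T, Eomes and Mixl1 UMIs, above the limit that a count of 0 allows. Their summed level was 1.18 (0.435 to 2.58), 1.77 (1.08 to 2.74), 2.95 (1.78 to 4.61) and 2.74 (1.71 to 4.14) CPM in libraries 1 to 4, from 6, 20, 19 and 22 UMIs, beside 1.498, 3.47, 3.45 and 4.21 in kept cells. The series holds no control samples for this level.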

How the results depend on the processing

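No paired analysis was possible because the labels' replicate numbers appear in no column or barcode, and library numbers are tied to no sample. Counts of called genes depended on the processing. The number of genes tested changes with the cells and the count minimum, so the counts below are not like shares. Genes past 1.5-fold higher and lower, 59 and 3, became 33 and 1 with 1 matched cell, 157 and 14 unmatched, 35 and 0 weighted by UMI decile, 195 and 15 with no count minimum, 8 and 0 at 200 counts, 9 and 0 at 2-fold, 37 and 1 without cells over 2 times the median UMI count, 9 and 1 with exactly 1 marker UMI, and 8 and 0 matched within naive quintiles. They became 24 and 0 for Eomes cells and 0 and 5 for Mixl1 cells, and in T cells 58 were lower. Leaving out 1 library gave 70 to 146 higher (109 without library 1, 146 without library 4) and 5 to 16 lower. Genes past 2-fold with at least 2 UMIs, 77 and 27, became 905 higher unmatched, 29 higher at 50 counts, 29 and 10 without cells over 2 times the median, 13 higher with UMIs of 2 of the 3 genes, and 85 to 165 higher and 39 to 80 lower without 1 library (165 and 80 without library 1, 124 and 53 without library 4). Alternatives added after the data were seen gave 21 and 2 (count minimum in the matched cells alone), 6 and 0 (naive and keratin quintiles) and 15 and 0 (without keratin-high cells) at 1.5-fold, and 46 and 27 (count minimum in the matched cells alone), 4 and 1 (without keratin-high cells), 44 higher (without cells of at least 5 UMIs) and 18 and 1 (naive quintiles) at 2-fold. Of the 21 lists, 10 were higher and 5 lower in every library, and the counts became 4 and 2 within naive quintiles, 5 and 1 within naive and keratin quintiles, and 2 lower without keratin-high cells. Not thinned, the shares of marker cells were 2.72%, 5.97%, 4.84% and 7.54%. Thinned, and without keratin-high cells, they were 0.904% in library 3 and 1.58% in library 4.

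Ratios that changed direction were Ryr2, whose weakest log2 ratio became 0.11 with 1 matched cell, 2410137M14Rik, 0.11 in naive and keratin quintiles and 0.36 in T cells, and, in Mixl1 cells, Igfbp3 (-1.22), Pkdcc (-0.25), Colec12 (-0.27), Krt19 (-0.00011), Ryr2 (0.26), 2410137M14Rik (1.58), Gm13580 (3.17) and Lekr1 (1.00). Mixl1 cells numbered only 13, 44, 41 and 60. Their ratios can rest on few UMIs or on a class at 0 taken as 3 counts, and do not show a change of direction. The median list ratio changed direction for the formative (-0.012) and trophoblast (0.017) lists in naive quintiles, and for the formative (-0.0091), trophoblast (0.0061) and primitive endoderm (-0.034) lists in naive and keratin quintiles. The cause was not tested. Keratin quintiles split cells with no keratin UMI by their order in the files. For 16 genes named with at least 1 UMI, 324 further values moved by less than the spread between libraries and 49 by more without a change of direction. At these depths a single UMI stands for a level near the detection limit of a cell, and library 1 had the fewest cells of at least 2 marker UMIs, 19.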

Other observations

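A set of 14 genes known from the interferon response and antigen presentation (Irf1, B2m, Tap1, Tapbp, Psmb8, Psmb9, Psme1, Psme2, Gbp2, Gbp2b, Nlrc5, H2-K1, H2-D1 and Ifngr1) was picked after the values were seen, partly from the ranked lists, so its sums describe that choice and test nothing. Their level was 297, 246, 621 and 328 CPM in marker cells of libraries 1 to 4, against 177, 176, 296 and 258 in matched cells, which is 1.68, 1.40, 2.09 and 1.27-fold. With at least 2 marker UMIs the folds were 3.22, 2.24, 4.48 and 2.00. With at least 5 they were 4.48, 9.05 and 4.02 in libraries 2 to 4. H2-K1, a class I histocompatibility antigen, stood at 28.8, 21.2, 52.6 and 43.4 CPM against 8.94, 10.95, 27.6 and 28.9 with at least 1 marker UMI. Irf1, the transcription factor of this group, stood at 54.7, 90.7 and 92.3 against 11.7, 9.42 and 14.3 in cells with at least 5. Psmb8 in library 3 was at 36.1 against 4.83, the highest level and the second largest ratio of the 4 libraries. The top 5% of marker cells held 36.3%, 20.6%, 29.0% and 20.6% of the UMIs of the set, and 97.5%, 85.3%, 65.3% and 68.4% of those of the sparser Psmb8. A UMI of the set was found in 92.3%, 95.7%, 96.9% and 99.1% of marker cells and in 92.0%, 94.9%, 92.9% and 97.0% of cells without a marker UMI.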
